A study of Bos taurus with 12 samples.

Results

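The miR-2284 and miR-2285 families were followed through small RNA sequencing of blood from Chinese Holstein dairy cows. Members were the names in the deposited table that start with miR-2284 or miR-2285 once the species prefix is taken off. There were 194 of them among 1981 names in all, 43 of miR-2284 and 151 of miR-2285. All carry the cattle prefix except 1, which carries the goat prefix. The series holds 6 libraries of heat stressed and 6 of heat resistant cows. The study placed the cows in these classes by how far their rectal temperature and milk yield responded, through a principal component analysis. The labels name blood as the source, without its fraction, and give no ages or sampling times.

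A microRNA is cut from a hairpin precursor, and a product of either arm of the hairpin can be loaded into an Argonaute protein. It then represses messenger RNAs that pair with its seed, a short stretch near its 5′ end. The miR-2284 and miR-2285 families are known from cattle and other ruminants, where they are spread over many closely similar genes told apart by letters.

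The RefSeq gene table of the cattle assembly ARS-UCD2.0 lists 191 genes of the families, 43 of miR-2284 and 148 of miR-2285. By letter, 184 of the 194 members matched a gene there, and 19 letters of that table had no name in the expression table. Of the 191 genes, 125 (65.4%) lie within the bounds of a protein-coding gene, close to the 65.3% of the 841 other miRNA genes in the same table. The table gives no strand, and the build behind the deposited values is unknown, so no positions are given. miR-2284x lies within TIAM1, which encodes an activator of the GTPase Rac. miR-2284w lies within DOCK11, which encodes an activator of the GTPase CDC42, and miR-2285t within FCGR2B, the gene of an inhibitory Fc receptor. miR-2284ab lies within AFF1, miR-2285p within MPP7, and miR-2285bc within ORC1, a subunit of the origin recognition complex. These 6 have 1 gene each, while miR-2285k has 5, and miR-2284y, miR-2284z and miR-2285n have 7 each. In 12 genes the bounds overlap those of another gene of the families, and 4 of the pairs so formed join a miR-2284 gene to a miR-2285 gene.

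Library totals ran from 3992952 to 9813801 counts with each name counted once. All 10 red cell, leukocyte and platelet markers read (miR-451, miR-144, miR-486, miR-363, miR-223, miR-126, miR-142, miR-150, miR-342 and miR-155) had counts. Of 3 liver markers, miR-122 stood apart in heat resistant libraries 1 and 2, with 147860.2 and 158462 CPM (counts scaled to a common library total after edgeR's TMM adjustment). The other 10 libraries had 9343 to 45483 CPM. The other liver markers were less set apart: miR-885 had 109 and 104 CPM in those libraries, against up to 179 CPM in heat stressed library 6, and miR-192 had 55108 and 60445 CPM, against 56215 CPM in heat resistant library 3.

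One name carried most of the signal of these families. miR-2284x averaged 3660 CPM over the 12 libraries, 60.7% of the summed mean CPM of all 194 members. miR-2284 names together held 79.6% of that sum and miR-2285 names 20.4%, although miR-2285 has more names. Next came the 3′ product of miR-2284w with 465 CPM, miR-2284ab with 342 CPM and the more abundant form of miR-2285k with 169 CPM. The unlabelled product of miR-2284w had 147 CPM, miR-2285p 144 CPM, miR-2285bc 114 CPM and miR-2285t 103 CPM. These levels are not divided by length, and mature miRNAs are of nearly equal length.

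Below these 8 names the families formed a long tail. Mean CPM was between 10 and 100 in 27 names and under 10 in 159, and the median member had 0.975 CPM. Of the members, 86 had counts in all 12 libraries and 27 in a single library. A heat stressed library had counts in 137 to 152 members (median 144), a heat resistant library in 101 to 145 (median 126.5). The lowest number came from heat resistant library 3, which also had the smallest total.

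The summed share of counts had a higher mean in heat stressed cows for both families, with overlapping groups. Both families together held 0.609%, 0.663% and 0.730% of counts in heat stressed libraries (lowest, median and highest) and 0.426%, 0.512% and 0.667% in heat resistant libraries. The mean was 0.669 ± 0.0428% for heat stressed cows, against 0.535 ± 0.0936% for heat resistant cows (SD over 6 libraries each). In 3 heat stressed libraries the share lay above all heat resistant ones. A sum over names chosen by family was given no test. In blood, fewer cells of a type and less of an RNA per cell cannot be told apart.

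miR-2284 names held 0.533 ± 0.0468% of counts in heat stressed cows, against 0.425 ± 0.0805% in heat resistant cows (SD over 6 libraries each). The miR-2285 names held 0.136 ± 0.00857% in heat stressed cows, against 0.110 ± 0.0146% in heat resistant cows. Of the heat stressed libraries, 3 for miR-2284 and 4 for miR-2285 lay above all heat resistant ones, and for miR-2284 without miR-2284x it was 1. miR-2284x alone held 0.409 ± 0.0378% in heat stressed cows, against 0.322 ± 0.0537% in heat resistant cows, and 5 heat stressed libraries lay above all heat resistant ones. The makeup of the families differed by less than the spread between libraries. miR-2284x made up 61.0 ± 2.93% of their counts in heat stressed cows, against 60.3 ± 1.75% in heat resistant cows.

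**Figure D1:**
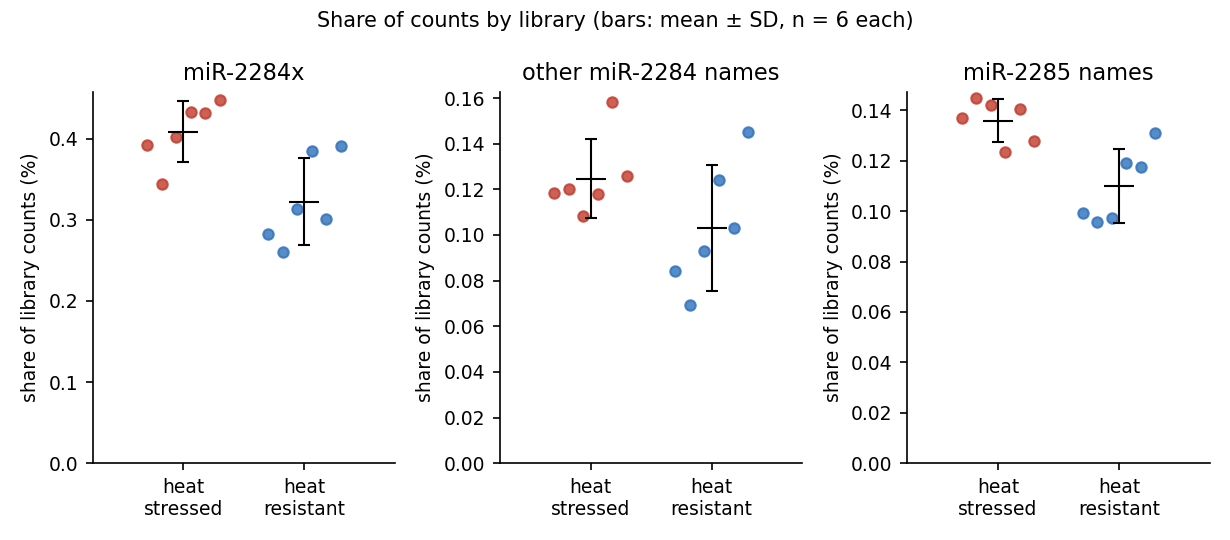
Percent of each library's counts (y axis, from 0) in miR-2284x, in the other miR-2284 names and in the miR-2285 names, for heat stressed (left) and heat resistant (right) cows. Each point is a library and the bars give the mean ± SD of 6; the groups overlap in all 3 panels, and 5 heat stressed libraries lie above every heat resistant library for miR-2284x.

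Several measures were set beside these shares by library. Whether they moved with the shares, and their part in the difference, was not tested. Heat resistant libraries 1 and 2, those with high miR-122, had the lowest shares of both families together (0.467% and 0.426%). Without both, the difference in that share (heat stressed minus heat resistant) was 0.0893 percentage points, against 0.134 with all libraries. The lymphocyte markers miR-150, miR-342 and miR-155 summed to 5929.5 to 13017 CPM in heat stressed libraries, against 4375 to 6056 CPM in heat resistant libraries. For them 5 heat stressed libraries lay above all heat resistant ones, as for the share of counts in miR-2284x. In CPM, heat stressed libraries 2 and 3 lay below heat resistant library 4 for miR-2284x. Heat stressed library 2 was the lowest of its group in the marker sum and in miR-2284x. By marker, the medians were higher in heat stressed cows for miR-342 (6347 CPM, against 2762 CPM in heat resistant cows) and miR-150 (2415 CPM, against 1429.8 CPM), but not for miR-155 (512 CPM, against 547 CPM). The leukocyte and platelet markers miR-223, miR-126 and miR-142 summed to 32066 to 53453 CPM in heat stressed libraries, against 23501 to 46116 CPM in heat resistant libraries. There the higher sum came from miR-142 (median 33567 CPM in heat stressed cows, against 15631 CPM in heat resistant cows), while the medians of miR-223 (8467 CPM, against 8553 CPM) and miR-126 (5545 CPM, against 6126 CPM) were lower in heat stressed cows. In heat resistant libraries 4 and 6 the sum of these 3 markers was highest within the group, as was the share of both families (0.628% and 0.667%). The 4 red cell markers summed to 26344 to 82369 CPM in heat stressed libraries, against 20270.2 to 97916 CPM in heat resistant libraries. Heat resistant library 4, with 97916 CPM of red cell markers, had a family share of 0.628%, while heat stressed library 6, lowest of its group with 26344 CPM, had one of 0.702%.

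Of the 194 members, 75 had enough counts to enter the edgeR test across the whole table (18 miR-2284 and 57 miR-2285 names) and 119 did not. No member passed an adjusted p of 0.05, and neither did any of the 756 features tested (0%). The smallest adjusted p of a member was 0.0939 (edgeR). At an unadjusted p under 0.05 there were 11 members with higher values in heat stressed cows (14.7% of 75, against 9.13% of all features). In the other direction there was 1 (1.33%, against 10.2%). DESeq2 called 3 members (4%, against 7.14% of all features) and limma-voom none. At an unadjusted p under 0.05 limma-voom had 14 members in either direction (18.7%, against 19.7% of all features). In 1 member, the 3′ product of miR-2285au, the groups did not overlap, where 0.926% of all features had such values. It stood at 1.68, 2.07 and 3.44 CPM in heat stressed libraries (lowest, median and highest) and 0.848, 1.24 and 1.67 CPM in heat resistant libraries (log2 fold change 0.89 ± 0.40, SE; edgeR adjusted p = 0.238).

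Fitted values of the tested members leaned to the heat stressed side. They were higher there in 58 of 75 members (77.3%), against 49.7% of all features and 46.2% of the 370 other tested cattle names. The median log2 fold change (heat stressed over heat resistant) was 0.28 over the members and -0.00 over all features. In miR-2284, 16 of 18 names had higher values, with a median of 0.36, and in miR-2285, 42 of 57, with a median of 0.23. Leaving out 1 library at a time, the miR-2285 median ran from 0.13, without heat stressed library 6, to 0.27. The difference between the families was not tested. Many names hold the same values, as described further on, so there are fewer measurements than names.

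With 1 name counted of each set that shares all its values, 46 of 63 members had higher values, the median over both families was 0.24 and that of miR-2285 was 0.14. Among the 55 tested members that share all their values with no other name, 38 had higher values, with a median of 0.14. When the whole table was refitted with 1 name of each set, all fold changes were estimated anew, and that of miR-2284x was 0.31. In that fit 44 of 63 members had higher values, with a median of 0.20 over both families and 0.08 in miR-2285. Without heat resistant libraries 1 and 2, 70 of 94 members had higher values, with a median of 0.17.

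**Figure D2:**
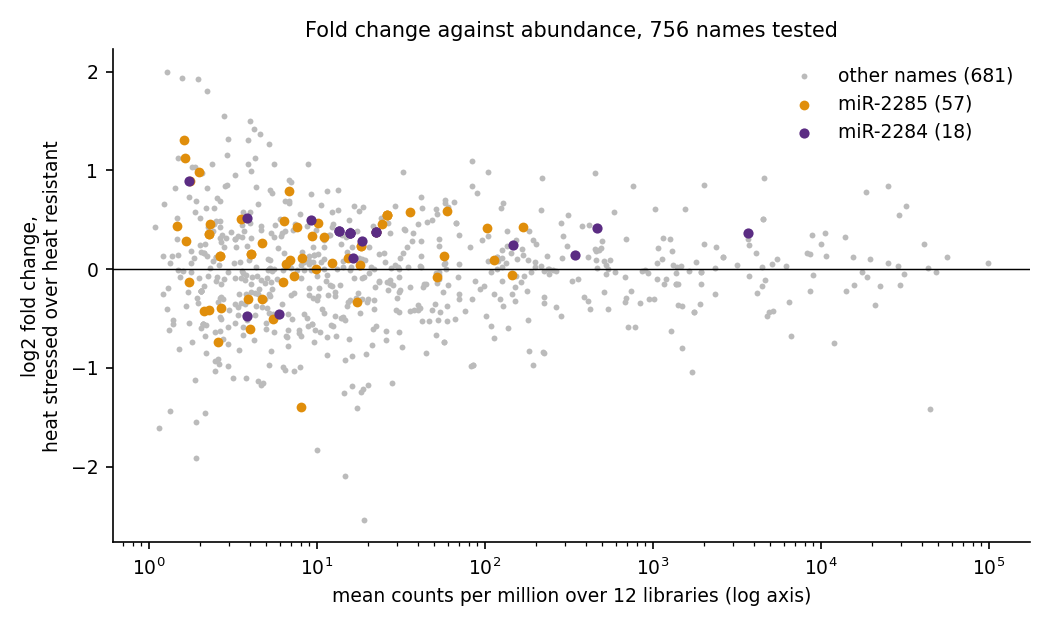
Log2 fold change of heat stressed over heat resistant cows (y axis) against mean CPM over the 12 libraries (x axis, log scale) for the 756 names tested. Purple points are the 18 miR-2284 names, orange points the 57 miR-2285 names and grey points the other 681; 16 of the purple and 42 of the orange points lie above 0, and none passed the test.

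By abundance, 25 of the 27 members between 10 and 100 CPM had higher values in heat stressed cows (median log2 fold change 0.36), whereas 86 of 206 other features of that range did (median -0.11). Of these 27 names, 14 lie in 5 sets that share all their values, each set with higher values in heat stressed cows. The 27 names thus hold fewer measurements, and their median is the value of 1 such set, that of miR-2284y. Of the 7 members between 100 and 1000 CPM, 6 had higher values (median 0.24), against 54 of 105 other features. Under 10 CPM it was 26 of the 40 members tested (median 0.14), against 130 of 279 other features. The 119 members not tested were all in this lowest class, and in 85 of them the mean CPM was higher in heat stressed cows. Without a set of 7 names with equal values, described further on, it was 78 of 112. The same count was not made for other untested names. Over all names, tested or not, a heat stressed library had counts in 1139 on average, against 1070 in a heat resistant library.

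The spread within groups depended on abundance. The median coefficient of variation of the 75 tested members was 24.7% in heat stressed cows, against 31.7% in heat resistant cows. For the 18 miR-2284 names it was 16.9% in heat stressed cows, against 27.0% in heat resistant cows. Over all features it was 28.1% in heat stressed cows, against 31.7% in heat resistant cows. With 1 name of each set that shares its values, the members had 28.0% in heat stressed cows, against 31.7% in heat resistant cows, near all features. For miR-2284 it was then 20.6% in heat stressed cows, against 27.0% in heat resistant cows. With every name counted, members between 10 and 100 CPM had 15.4% in heat stressed cows, against 22.6% in heat resistant cows. The 40 tested members under 10 CPM did not share this order, with 45.01% in heat stressed cows, against 43.5% in heat resistant cows. These differences in spread were not tested.

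miR-2284x had 3332, 4249.9 and 4569.6 CPM in heat stressed libraries (lowest, median and highest) and 2630.2, 3022 and 3909.6 CPM in heat resistant libraries. Every heat stressed library lay above the heat resistant median, with library 2 the lowest. Heat resistant libraries 4 and 6 were the high ones of their group. Library 4 was the higher in CPM, but by share of counts library 6 (0.391%) lay above library 4 (0.385%). The log2 fold change of miR-2284x was 0.37 ± 0.13 (SE; edgeR adjusted p = 0.151). Leaving out 1 library at a time, it ran from 0.27 to 0.44. The highest value came without heat resistant library 4, where the edgeR adjusted p was 0.0281 and 12.5% of all features were called. Without heat resistant libraries 1 and 2 the log2 fold change of miR-2284x was 0.27 (edgeR adjusted p = 0.445).

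The 3′ product of miR-2284w had 445, 504 and 652 CPM in heat stressed libraries and 254, 369 and 542 CPM in heat resistant libraries. The groups overlapped through heat resistant libraries 4 and 6 (edgeR log2 fold change 0.41 ± 0.18, SE; adjusted p = 0.225). The unlabelled product of the same precursor had 139, 146 and 204 CPM in heat stressed libraries and 86.7, 126 and 191 CPM in heat resistant libraries (0.24 ± 0.19; edgeR adjusted p = 0.471). miR-2284ab had 255, 374 and 469 CPM in heat stressed libraries and 232, 312 and 484 CPM in heat resistant libraries, nearly the same range (0.14 ± 0.21; edgeR adjusted p = 0.738).

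miR-2285k stands in the table in 2 forms. The more abundant one had 149, 203 and 242 CPM in heat stressed libraries and 113, 134 and 210.1 CPM in heat resistant libraries (edgeR log2 fold change 0.42 ± 0.17, SE; adjusted p = 0.191). The other had 32.6, 46.0 and 51.4 CPM in heat stressed libraries and 22.8, 26.6 and 39.4 CPM in heat resistant libraries (0.58 ± 0.17; edgeR adjusted p = 0.0973). In both forms every heat stressed library lay above the heat resistant median, and heat resistant library 6 was the highest of its group.

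Among the other abundant miR-2285 names, miR-2285p had 85.4, 141 and 192 CPM in heat stressed libraries and 111, 143 and 199.7 CPM in heat resistant libraries. miR-2285bc had 76.1, 104 and 166 CPM in heat stressed libraries and 69.1, 112 and 139.5 CPM in heat resistant libraries. For both the spread within a group was wider than the difference (edgeR adjusted p = 0.916 for miR-2285p and 0.856 for miR-2285bc). miR-2285t had 84.6, 122 and 134 CPM in heat stressed libraries and 44.1, 92.4 and 135 CPM in heat resistant libraries. There heat resistant libraries 5 and 6 were low, and library 1 of that group was the highest of all 12 (log2 fold change 0.41 ± 0.23, SE; edgeR adjusted p = 0.310).

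**Figure D3:**
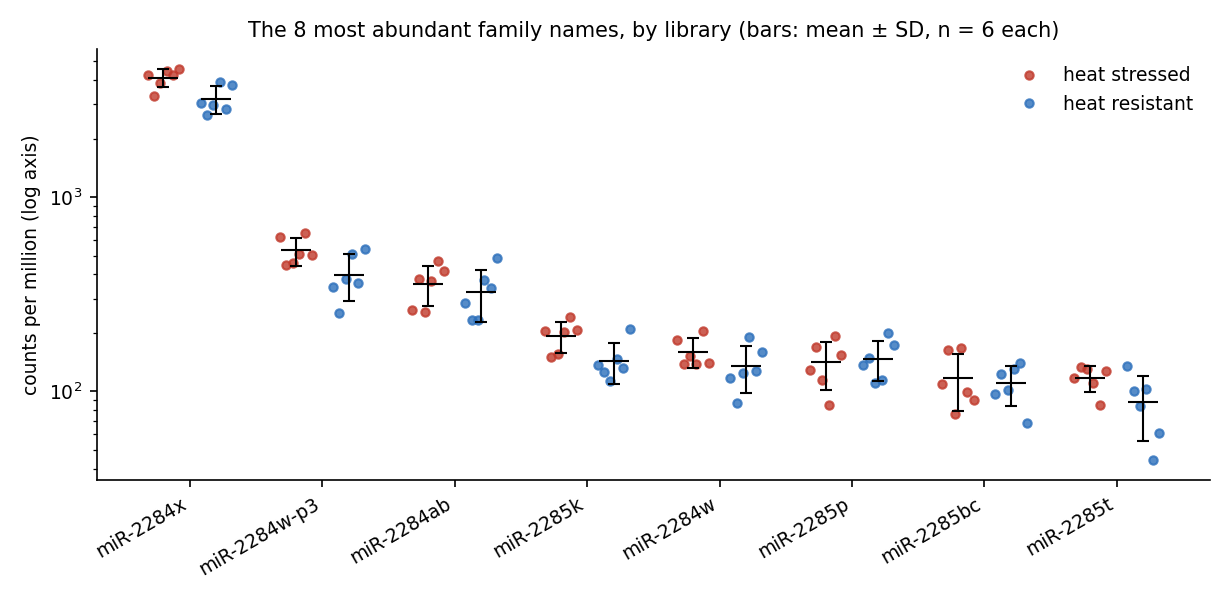
CPM (y axis, log scale) of the 8 most abundant names of the families in each library, heat stressed in red and heat resistant in blue. Bars give the mean ± SD of 6 libraries; miR-2284x, with a mean of 3660 CPM, lies far above the rest, and the groups overlap for all 8.

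The member with the smallest p was miR-2285bf. It had 57.2, 71.1 and 88.2 CPM in heat stressed libraries and 40.5, 43.5 and 63.6 CPM in heat resistant libraries, where library 4 was the high one (edgeR log2 fold change 0.59 ± 0.17, SE; adjusted p = 0.0939). After the less abundant form of miR-2285k and miR-2284x followed miR-2284aa without end changes, and miR-2285av. miR-2284aa had 8.88, 10.2 and 13.1 CPM in heat stressed libraries and 5.92, 7.52 and 9.35 CPM in heat resistant libraries (0.50 ± 0.19; edgeR adjusted p = 0.170). miR-2285av had 10.1, 11.1 and 15.2 CPM in heat stressed libraries and 6.59, 8.24 and 10.2 CPM in heat resistant libraries (0.47 ± 0.18; edgeR adjusted p = 0.175). In all 3 every heat stressed library lay above the heat resistant median.

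The 5′ product of miR-2285s, whose gene lies within the formin gene FMNL2, had the lowest p among names with lower values. It had 1.72, 3.39 and 9.01 CPM in heat stressed libraries and 3.45, 12.4 and 17.3 CPM in heat resistant libraries (log2 fold change -1.40 ± 0.41, SE; edgeR adjusted p = 0.0973). Every heat stressed library lay below the heat resistant median, and the groups overlapped through heat stressed libraries 3 and 6 and heat resistant libraries 1 and 4. The next names with lower values by p were miR-2285ar (-0.74 ± 0.40), miR-2285b (-0.33 ± 0.18), miR-2285cn (-0.61 ± 0.40) and miR-2284f (-0.45 ± 0.32), given as log2 fold change with SE, with edgeR adjusted p from 0.308 to 0.438. miR-2285b, the most abundant of these, had 12.2, 14.2 and 19.5 CPM in heat stressed libraries and 14.9, 19.0 and 25.7 CPM in heat resistant libraries.

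Members were called when either of 2 libraries was left out, at rates near those of all features. Without heat resistant library 4, edgeR called 8 of 78 members (10.3%, against 12.5% of all features). Of these 7 had higher values, namely miR-2284x, miR-2285bf, the less abundant form of miR-2285k, the 5′ product of miR-2285cd and 3 names of 1 shared set, and the 5′ product of miR-2285s had lower values. In CPM, heat resistant library 4 was the highest of its group in miR-2284x, miR-2285bf, the miR-2285cd product and the shared set, and the lowest in the miR-2285s product. Leaving out heat stressed library 2 gave calls for miR-2285bf and the less abundant form of miR-2285k, 2 of 77 members (2.6%, against 3.74%). DESeq2 with all libraries called miR-2285bf (adjusted p = 0.0257), the less abundant form of miR-2285k (0.0323) and the 5′ product of miR-2285s (0.0247).

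Arm labels were present on 93 members, 57 of the 5′ arm and 36 of the 3′ arm, and 101 names had none. Unlabelled names held 86.8% of the families' summed mean CPM, 3′ names 9.52% and 5′ names 3.65%. The 3′ product of miR-2284w, at 465 CPM, made up most of the 574 CPM of all 3′ names. The most abundant 5′ names stood at 26.1 CPM in miR-2285 and 15.7 CPM in miR-2284, and the most abundant 3′ name of miR-2285, a product of miR-2285cq, at 17.9 CPM. Higher fitted values in heat stressed cows were seen in 13 of 18 tested 5′ names (median log2 fold change 0.36), 12 of 13 tested 3′ names (0.13) and 33 of 44 tested unlabelled names (0.24). Of the 75 tested members, 20 share all their values with another name, in 8 sets, among them names of each arm class. These counts thus hold fewer measurements than names, and the 5′ median is the value of the miR-2284y set.

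Both arms of a precursor could be set side by side where 1 product carried an arm label. The unlabelled name was then taken as the product of the other arm, except in miR-2285e-2, where both products were labelled. That reading was not checked against sequences. It cannot hold throughout, since unlabelled miR-2284y and miR-2285o, not among the precursors compared here, hold all the values of a labelled product of the same letter. In miR-2284w the 3′ arm dominated, with 76.9 ± 1.34% of the precursor's counts in heat stressed cows, against 74.7 ± 1.48% in heat resistant cows (SD over 6 libraries each). Heat stressed libraries ran from 75.0% to 78.6%, heat resistant libraries from 72.8% to 77.2%. Of 13 precursors with both products at 1 CPM or more on average, 6 had no value shared with another name and a product of at least 10 CPM, a choice made after the values were seen. In the 5 of these besides miR-2284w the labelled product was the minor one. The 5′ product of miR-2285aa made up 19.7 ± 2.61% in heat stressed cows, against 15.2 ± 3.75% in heat resistant cows. For miR-2285t the 5′ product made up 19.5 ± 2.73% in heat stressed cows, against 19.3 ± 1.98% in heat resistant cows. In miR-2285p, miR-2285bc and miR-2284ab the mean stayed under 5% in both groups. Among the other 7 precursors the labelled product was the larger one in miR-2285bz (60.1% in heat stressed cows, against 53.6% in heat resistant cows), miR-2285cm (66.8%, against 56.9%) and miR-2285x (64.5%, against 71.7% without heat resistant library 3, where neither product had counts). The 5′ products of miR-2285cm and miR-2285x hold the same values as other names, so their percents cannot be attributed to 1 precursor. Arm usage was given no test, and in all 13 precursors the groups overlapped.

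**Figure D4:**
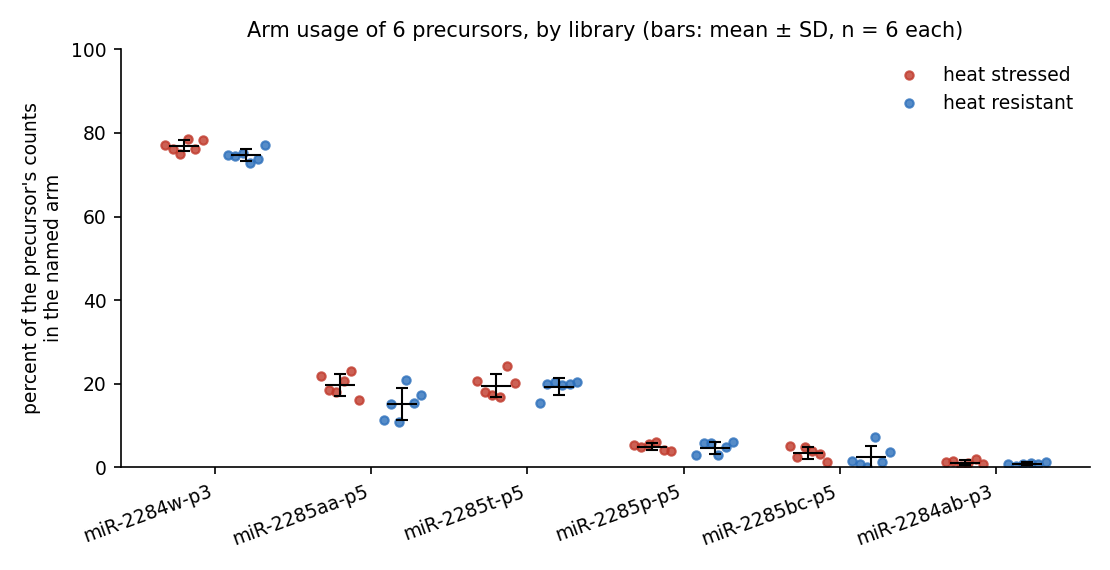
Percent of a precursor's counts that carry the named arm (y axis, 0 to 100) in 6 precursors, heat stressed in red and heat resistant in blue. Bars give the mean ± SD of 6 libraries; the 3′ product holds 72.8% to 78.6% of miR-2284w counts, while the named arm is the minor one in the other 5 precursors.

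Many values of these families are not whole numbers, and many names hold the same values. Only 39.5% of the members' values above 0 were whole (within 1e-06), against 85.2% in other cattle names. The share was 37.6% in miR-2284 and 40.1% in miR-2285. The smallest value of a member above 0 was 0.161 counts, and 22.2% of the members' values above 0 were under 5 counts, against 1.02% in other cattle names. How reads that match several names were assigned is not stated in the labels.

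In 70 members all 12 values were equal (within the same tolerance) to those of another name, in 34 sets. Of these sets 14 had counts in fewer than 3 libraries, where equal low counts can coincide. The other 20 sets held 53 members and no name from outside the families, and 3 of them joined names of both families. The values of a set cannot be attributed to any 1 of its names. The 194 members thus hold 158 distinct sets of values, and the 75 tested members hold 63.

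Of the 20 sets, 5 averaged 10 CPM or more. The highest, at 26.1 CPM for each name, joined 5′ products of miR-2285aj, miR-2285cm and miR-2285e. It stood at 26.0, 31.9 and 35.0 CPM in heat stressed libraries and 7.07, 20.5 and 37.9 CPM in heat resistant libraries, where library 2 was the low and library 4 the high one (edgeR log2 fold change 0.55 ± 0.28, SE; adjusted p = 0.283). The next, at 22.4 CPM, crossed the families and joined miR-2284v and a form of miR-2284aa with miR-2285au and the 5′ product of miR-2285cb. It stood at 22.1, 25.6 and 28.4 CPM in heat stressed libraries and 10.4, 18.3 and 28.2 CPM in heat resistant libraries (0.38 ± 0.21; edgeR adjusted p = 0.308). In both sets every heat stressed library lay above the heat resistant median. The remaining 3 were miR-2285bn with miR-2285cj at 18.4 CPM (0.23 ± 0.17), miR-2284y with 5′ products of its copies at 15.7 CPM (0.36 ± 0.17), and 3′ products of copies of miR-2284aa and miR-2284z at 13.6 CPM (0.38 ± 0.38), with log2 fold change and SE in brackets.

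A further set, chosen for description after its values were seen, joined 7 miR-2285 names and was high in 3 libraries. These are miR-2285ad, miR-2285ap, miR-2285at, miR-2285bq, miR-2285l, miR-2285n and the 3′ product of miR-2285u, which stand on 15 rows of the table. Each name had 169.8, 104.1 and 304 counts in heat stressed libraries 1, 2 and 3, and 7.53, 9.54 and 8.40 counts in heat stressed libraries 4, 5 and 6. Heat resistant libraries 1 to 6 had 4.55, 2.28, 0.731, 10.8, 3.05 and 5.15 counts. In CPM the 3 high libraries had at least 12.1, against at most 1.35 in the other 9.

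The 7 names were not tested, since they did not pass the filter on low counts. With the values of repeat rows summed, 3 of the 7 were called, each with a log2 fold change of 4.28 or more (edgeR adjusted p = 0.0462 for each). No other member was called in that fit, so that it called 3 of 82 (3.66%, against 1.68% of all features). Since each row of the 3 names holds the same values, these calls amount to 1 measurement. Heat stressed libraries 4 to 6 did not share the high values. Over all 1981 names, 10 had each of these 3 libraries above 5 times the highest of the other 9, and they were the 7, a pair of miR-2285 names near the floor of the counts and 1 name outside the families.

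**Figure D5:**
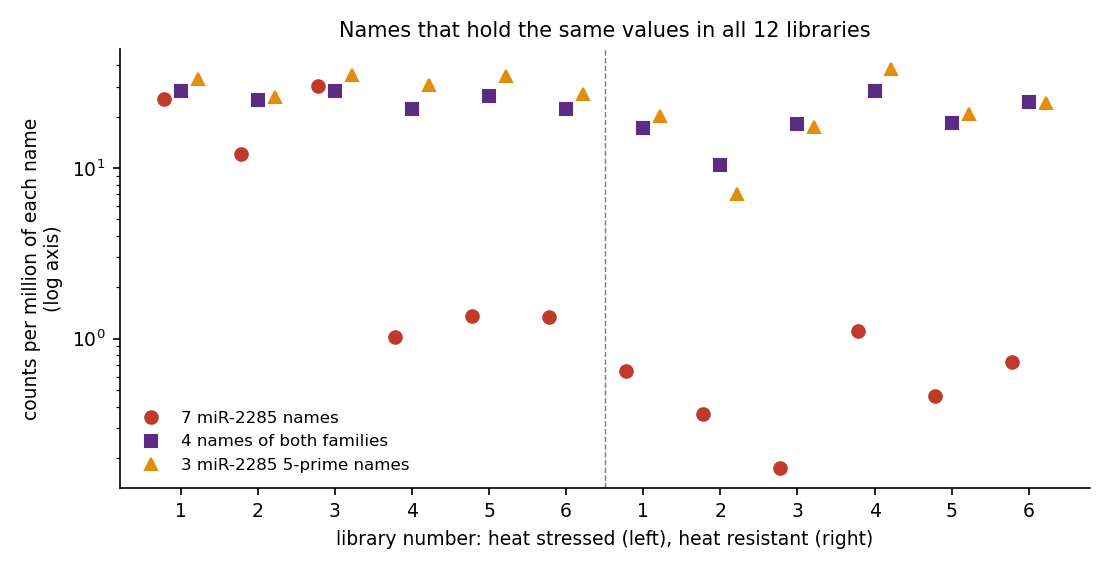
CPM of each name (y axis, log scale) in the 12 libraries (x axis, heat stressed 1 to 6 left of the dashed line, heat resistant 1 to 6 right of it) for 3 sets of names that hold equal values. The set of 7 miR-2285 names (red circles) lies at 12.1 CPM or more in heat stressed libraries 1 to 3 and at 1.35 CPM or less in the other 9, while the sets of 4 (purple squares) and 3 names (orange triangles) lie at 7.07 CPM or more in every library.

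The 7 names also entered the miR-2285 share. Without them miR-2285 held 0.128 ± 0.00824% of counts in heat stressed cows, against 0.110 ± 0.0144% in heat resistant cows (SD over 6 libraries each). The difference in means was 0.0180 percentage points without them and 0.0259 with them. Without them 2 heat stressed libraries lay above all heat resistant ones, against 4 with them.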

How the data were processed

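Per the labels' protocols, blood RNA was extracted with Trizol, libraries followed the TruSeq small RNA protocol, an Illumina HiSeq was used, and reads were filtered with ACGT101-miR. That text speaks of fewer libraries than the 12 used. For the aligner, miRBase release and genome build no details are given in the sources used here. Per the file headers, the deposited raw columns hold a read count per miRNA that need not be whole (expected counts). The deposited normalized columns (a signal) are the raw values times 1 constant per library and entered no test.

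Of 2183 rows, 202 repeat a name with its values, and each name was counted once, so 24 members on several rows may be understated. Expected counts were rounded and fitted with edgeR 4.0.16 in R 4.3.3 (filterByExpr, TMM, robust quasi-likelihood F test, 2-sided) over all 12 libraries, with Benjamini-Hochberg adjustment over the 756 features kept. The SE was taken from the fold change and the F statistic. DESeq2 1.42.0 and limma 3.58.1 (voom) were alternatives. The fit was tested on simulated data. Members, lists and tests were chosen with earlier results of these data known. Named members are the 8 most abundant, the 5 with the smallest p in each direction, the most abundant of each family and arm, and shared sets averaging 10 CPM or more. The miR-2285au product, the precursors set side by side by arm and the members called under alternatives were named after their values were seen. End and base changes are left out of names. Seed groups were not formed, as mature sequences were not used here. Libraries were taken as 1 per cow, and nothing else is known of what the spread between them holds, so p-values measure that spread alone.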

Additional observations from a re-analysis of the deposited data

Results flagged for a closer look

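In a check of the highest and lowest library over 56 groups of 6 values, 2 stood apart by Dixon's criterion, and chance alone marks about 1 in 20 groups. The more abundant form of miR-2285k had 210.1 CPM in heat resistant library 6, where the next library of that group had 147 CPM. The 3′ product of miR-2285cq had 25.2 CPM in the same library, where the next had 17.5 CPM. Heat resistant library 6 also had the highest share of both families in its group, 0.667%.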

How the results depend on the processing

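Over all features, 54 were called by DESeq2, 11 with no filter on low counts, 13 with repeat rows summed, 8 with the replicate number as a block and 9 without heat stressed libraries 1 to 3. That last setting, like leaving out heat resistant libraries 1 and 2, was added after seeing the data. Members called were 3 with DESeq2, 3 with repeat rows summed and 0 under the block. Leaving out 1 library at a time gave 0 to 97 features and 0 to 8 members. Of the same-numbered libraries, 2 of 6 pairs correlated over 0.1 in their deviations from the group means (highest 0.277). Heat stressed libraries 3, 4 and 6 correlated best with their own number. Whether the numbers mark a pairing is not known, and 6 correlations cannot settle it. With no filter 142 of 191 members had higher values and the miR-2285 median was 0.45. With the 10 most abundant features left out of the totals, which makes them smaller, the share differences were 0.230, 0.186 and 0.0441 percentage points for both families, miR-2284 and miR-2285. With rows summed that of miR-2285 was 0.0462. The sign of small log2 fold changes turned: miR-2284ab was at -0.015 without heat resistant libraries 1 and 2, and the 3′ product of miR-2285cq at -0.035 there and at -0.011 with 1 name per shared set. Leaving out 1 library, that product ran from -0.048 to 0.14, miR-2285p from -0.15 to 0.063 and miR-2285bc from -0.065 to 0.19. The median over both families was between 0.17 and 0.44 under the alternatives run. The cause of these shifts was not tested. Depth limits members under 10 CPM.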
